A study of Drosophila melanogaster with 2 samples.

Results

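The 40 genes described here encode DNA repair and damage checkpoint proteins of the fruit fly Drosophila melanogaster. They were taken as a list of named genes from sensing, signalling and repair routes. All 40 were found in the Ensembl release 115 annotation, among 13968 protein-coding genes on the chromosome arms. Of these, 36 matched by symbol, and mus308, mus210, Parp and mus205 matched as synonyms of the annotated genes PolQ, Xpc, Parp1 and PolZ1. The series mapped the genomic positions of the protein CG14667 by chromatin immunoprecipitation and sequencing (ChIP-seq). The samples were 2 biological replicates of whole embryos aged 0 to 24 h, from a transgenic strain that expresses CG14667 fused to eGFP, and the antibody was directed against GFP. All samples carried the fusion and belonged to 1 group, so no treatment, genotype or age was compared. Whole embryos mix every tissue and stage, so a weak peak in many cells and a strong peak in few cells cannot be told apart.

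CG14667 is a zinc-finger protein of the ZAD family, whose members bind DNA and carry an N-terminal dimerisation domain. Cells answer DNA damage with sensor complexes and kinases that halt the cell cycle, and with separate repair routes for each kind of lesion. Double-strand breaks are rejoined by end joining or by homologous recombination, bulky lesions and damaged bases are cut out by excision repair, and replication errors are removed by mismatch repair. In the fly embryo, whose early nuclear cycles run without gap phases, the ATR and Chk1 checkpoint genes are also needed for normal slowing of the cycles before zygotic transcription, and several recombination genes act in meiosis. Roles given below for the fly genes follow these established functions or those of their yeast and human counterparts.

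A gene was counted as bound when the summit of a peak lay within 500 bp of any of its annotated transcription starts. The peaks were those of the authors' conservative list, which was made from both replicates and held 3083 peaks, 3029 of them on the chromosome arms. The longer thresholded list of the series held 3552 peaks, and the replicates' own lists held 2699 (replicate 1) and 2146 (replicate 2). Each peak carries a signal computed by the authors' peak caller against a control. The scale of this signal is not given in the sources used here and the sequencing depth is unknown, so signals were used to rank and describe peaks within a list. Numbers for shares of genes are descriptions of these lists, and no test was made of them.

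The 40 repair genes were chosen with earlier results of these data known, so their bound share describes this list only. A further list of 78 repair genes, described below, had 15.4% bound. Among the 40 repair genes, 15 were bound (37.5%), against 12.6% of all protein-coding genes (1755 of 13968). They included mei-41, tefu and nbs of damage signalling, Irbp of end joining, spn-B of recombination, mus312 of the structure-specific nucleases, Ercc1, mus210, mei-9 and Xpd of nucleotide excision, Rrp1 and XRCC1 of base excision, the photolyase gene phr and the Fanconi gene Fancm. By route the counts were 3 of 9 for damage signalling and break sensing, 1 of 3 for end joining, 1 of 5 for homologous recombination and 1 of 5 for the structure-specific nucleases and helicases. They were 4 of 7 for nucleotide excision, 2 of 3 for base excision and strand-break repair, 1 of 1 for direct reversal and 1 of 4 for crosslink repair and translesion synthesis. With routes of 1 to 9 genes, a difference of 1 gene changes these shares widely, and no order of the routes was read from them. With peaks given to the nearest start only, damage signalling had 1 bound gene and base excision 0, and in replicate 1's own list crosslink repair had 0.

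**Figure D1:**
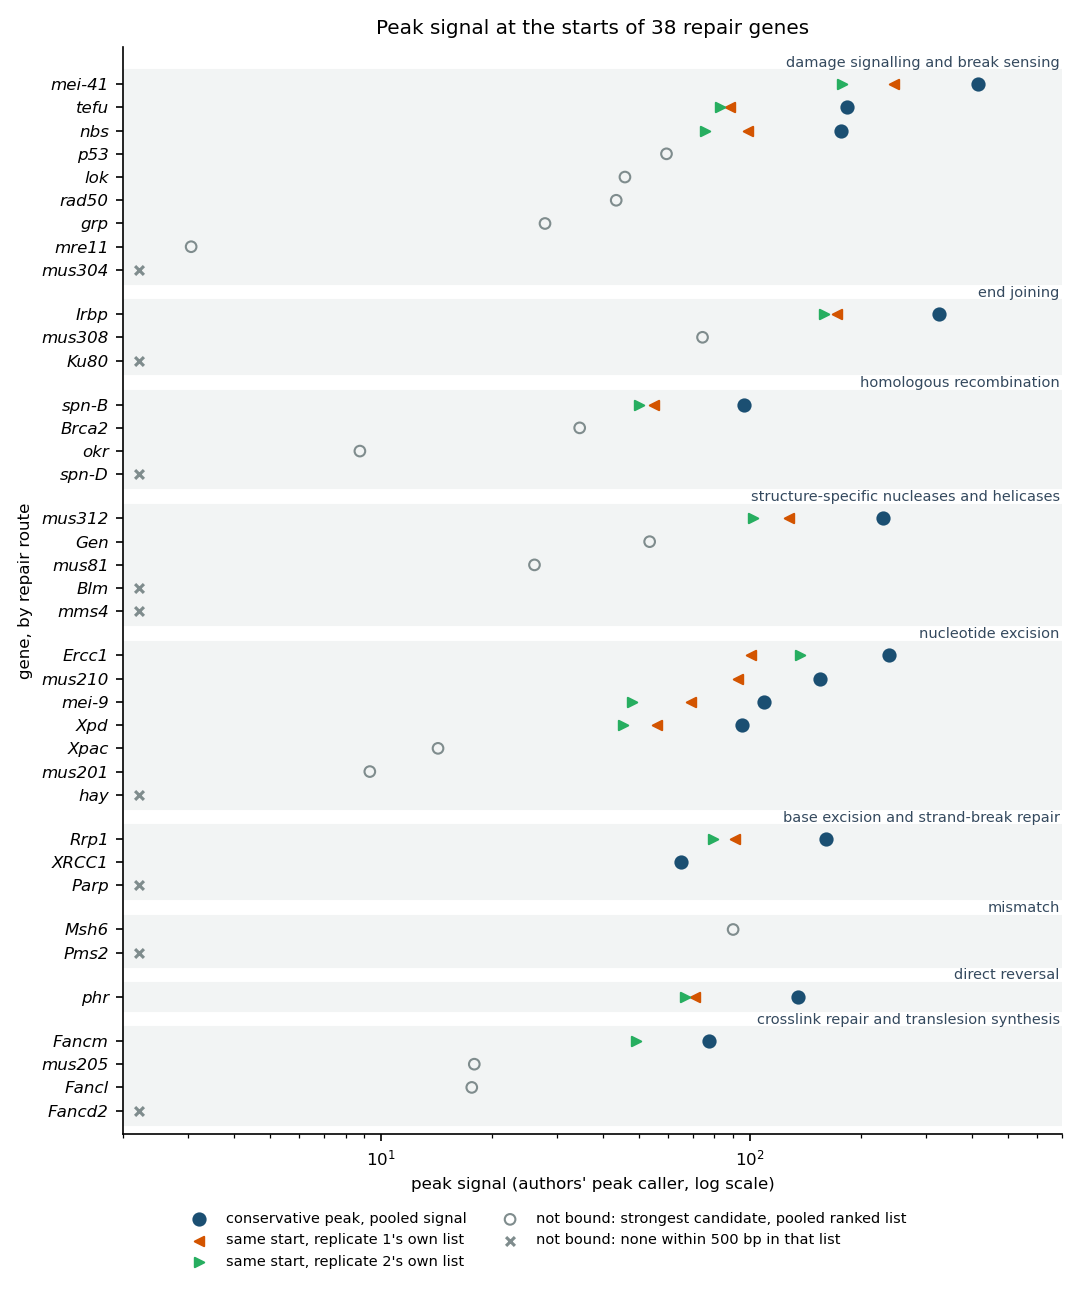
Peak signal (log axis) at the starts of 38 of the repair genes, grouped by route, with filled circles for the pooled signal of the conservative peak, triangles for the signal at the same start in each replicate's own list, open circles for the strongest candidate of the pooled ranked list at genes that were not bound and crosses for genes with none within 500 bp in that list. Pooled signals of the 14 bound genes drawn run between 64.8 (XRCC1) and 415 (mei-41), and 11 of the 14 have a triangle for both replicates.

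The DNA under the summits is shown for 7 of the bound genes, chosen to span the strongest peaks, several routes and the summits with unlike base composition. Each window of 101 bases is centred on the summit and is written 5′ to 3′ on the strand of the repair gene, from the RefSeq reference genome of the dm6 build. Capitals mark unbroken runs of at least 8 A or T bases. The windows are chrX:16391501-16391601 (plus strand), chr3R:11409926-11410026 (plus), chr3L:7328979-7329079 (plus), chr3L:9723247-9723347 (minus), chrX:4318180-4318280 (minus), chr3R:15242436-15242536 (minus) and chr3R:21482015-21482115 (plus).
mei-41: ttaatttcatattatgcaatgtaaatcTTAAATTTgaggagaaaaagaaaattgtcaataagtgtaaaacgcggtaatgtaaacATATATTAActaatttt
Irbp: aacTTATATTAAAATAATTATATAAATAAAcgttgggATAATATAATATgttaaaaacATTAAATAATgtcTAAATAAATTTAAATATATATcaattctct
mus312: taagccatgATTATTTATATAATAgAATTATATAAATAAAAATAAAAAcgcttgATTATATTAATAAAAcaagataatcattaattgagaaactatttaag
nbs: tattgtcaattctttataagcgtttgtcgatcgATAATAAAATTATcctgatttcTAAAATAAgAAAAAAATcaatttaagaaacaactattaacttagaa
mei-9: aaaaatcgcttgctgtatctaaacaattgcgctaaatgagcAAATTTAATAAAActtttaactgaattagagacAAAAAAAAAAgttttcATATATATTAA
tefu: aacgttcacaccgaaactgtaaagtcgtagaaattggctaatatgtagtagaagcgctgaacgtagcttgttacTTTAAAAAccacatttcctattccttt
Fancm: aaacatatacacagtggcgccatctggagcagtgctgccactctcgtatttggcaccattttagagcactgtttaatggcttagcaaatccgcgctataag
The windows of Irbp and mus312 were the poorest in G and C, with 12.9% and 15.8%, and their longest A/T runs reached 27 and 23 bases. Those of mei-41, nbs and mei-9 held 21.8 to 22.8% GC. The window of tefu held 36.6% and that of Fancm 46.5%, and the Fancm window had no A/T run of 8 bases.

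Damage signalling and break sensing contained the strongest peak of the set. The peak at mei-41 (FBgn0004367), which encodes the ATR kinase, lay on X at 16391444 to 16391656. Its pooled signal was 415, rank 188 of 3083, with own-list signals of 245 (replicate 1) and 178 (replicate 2). The summit was intergenic, 147 bp upstream of the mei-41 start. At tefu, which encodes the ATM kinase, the peak on 3R spanned 15242318 to 15242653, and its pooled signal was 183, with 88.4 in replicate 1 and 83.1 in replicate 2. Both apical kinase genes of the checkpoint were thus counted as bound, and the peak at mei-41 had the larger signal in the pooled list and in each replicate. The mei-41 summit was nearer to the start of its neighbour TH1, at 113 bp. The tefu summit was 250 bp upstream of tefu and 201 bp from the start of its neighbour Hsc70-4. With peaks given to the nearest start only, neither kinase gene was bound. The peak at nbs, the Nbs1 subunit of the break-binding MRN complex, covered 9723129 to 9723464 of 3L, and its pooled signal was 176, with 98.5 in replicate 1 and 75.6 in replicate 2.

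The other genes of this route among the 40 were not bound, in a list where the bound share of all protein-coding genes was 12.6%. Neither mre11 nor rad50, the other subunits of MRN, had a conservative summit within 500 bp of a start, and the nearest ones were 12941 bp and 23406 bp away. For mus304, the ATRIP partner of ATR, the nearest was 38834 bp away, and no candidate of the pooled ranked list lay within 500 bp, while replicate 1's ranked list had 1 of signal 28.7, 465 bp downstream of a start. The effector kinase genes grp (Chk1) and lok (Chk2) and the transcription factor gene p53 were not bound either. The candidate at p53, 40 bp upstream of a start, had a signal of 59.3 and was present in the longer thresholded list.

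Among the end-joining genes the peak at Irbp (FBgn0011774), the Ku70 subunit that caps broken ends, stood out by signal. It covered 11409850 to 11410052 of 3R, and its pooled signal was 324, rank 301, with 172 in replicate 1 and 158 in replicate 2. The summit was 71 bp upstream of the start, and the replicates' own summits were at 70 and 72 bp upstream. The gene for the other Ku subunit, Ku80, had no candidate in the pooled ranked list within 500 bp of its start, and its nearest conservative summit was 9073 bp away. Replicate 2's ranked list alone had one, with a signal of 15.7, 320 bp upstream. For mus308, the DNA polymerase theta of microhomology-mediated joining, a candidate 179 bp upstream had a signal of 74.3 and entered the longer list and replicate 2's own list, but not the conservative one.

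Of the recombination genes spn-B, which is needed in meiosis, was bound. Its peak on 3R spanned 14327756 to 14328091, and its pooled signal was 96.4, rank 1955, with 54.7 in replicate 1 and 50.1 in replicate 2, and the summit was 127 bp upstream of the start. The recombination mediator gene Brca2, the translocase gene okr (RAD54) and the recombination gene spn-D had no conservative summit within 500 bp, in a list where the bound share of all genes was 12.6%. Among genes for enzymes that resolve branched DNA, mus312, the SLX4 scaffold that also acts with mei-9 in meiotic crossovers, was bound. The peak on 3L spanned 7328985 to 7329110, and its pooled signal was 229, rank 542, with 128 in replicate 1 and 102 in replicate 2. Blm, mus81, mms4 and Gen were not bound, so neither subunit gene of the MUS81 nuclease had a conservative peak at a start.

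In nucleotide excision repair 4 of 7 genes were bound. Ercc1 and mei-9, which encode both subunits of the XPF-ERCC1 nuclease that cuts on the 5′ side of a lesion, were bound. The Ercc1 peak on 2R spanned 14852707 to 14852839, and its pooled signal was 238, rank 510, with 100.5 in replicate 1 and 137 in replicate 2. It was the only bound repair gene present in both own lists whose signal was lower in replicate 1. The mei-9 peak on X spanned 4318062 to 4318397, and its pooled signal was 109, with 69.1 in replicate 1 and 47.8 in replicate 2. Its summit lay in an intron of the longer mei-9 transcript, 103 bp upstream of the gene's internal start.

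The damage sensor gene mus210 (XPC) had a peak on 2R between 15311061 and 15311396, whose pooled signal was 154. The summit was 281 bp upstream of the start. Replicate 1's own list held it with 92.4. In replicate 2 it was only a ranked candidate, with 47.6. A weaker conservative summit 76 bp upstream of the same start had a signal of 9.61, rank 3040. Xpd, a helicase of the TFIIH complex, had a peak on 2R between 21170750 and 21171085, whose pooled signal was 94.98, with 55.7 in replicate 1 and 45.1 in replicate 2. The other TFIIH helicase gene, hay (XPB), had no candidate in the pooled ranked list within 500 bp, and 1 of signal 7.34 in replicate 1's ranked list. The genes mus201 (XPG) and Xpac (XPA) had candidates of 9.31 and 14.2 near the edge of that distance, 494 and 479 bp upstream.

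In base excision and strand-break repair, Rrp1 and XRCC1 were bound and Parp was not. Rrp1, the apurinic endonuclease of base excision repair, had a peak on 2L between 2972557 and 2972892, whose pooled signal was 160.1, with 90.7 in replicate 1 and 79.1 in replicate 2. XRCC1, the scaffold of strand-break repair, had the lowest signal of the set. Its peak on X spanned 5329280 to 5329615, and its pooled signal was 64.8, rank 2847. Neither replicate's own list held it, and the ranked lists had candidates of 37.0 in replicate 1 and 38.2 in replicate 2. The summit was also the farthest from its gene, 428 bp upstream. Parp, which marks strand breaks with ADP-ribose, had its nearest conservative summit 163259 bp away.

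Of the mismatch repair genes, Msh6, whose protein takes part in recognising mismatches, was just outside the threshold. Its candidate 300 bp upstream had a signal of 89.9 and a global IDR of 0.0103, and it entered the longer list and replicate 1's own list (62.1). IDR, the irreproducible discovery rate, is the expected share of peaks ranked at least as high that would not be found again. Pms2 had no candidate in the pooled ranked list, and 1 of signal 15.5 in replicate 1's ranked list. The photolyase gene phr, whose enzyme reverses ultraviolet lesions with light, had a peak on 2R between 7825187 and 7825522, whose pooled signal was 135, with 70.7 in replicate 1 and 66.4 in replicate 2. It was the only bound repair gene whose summit lay downstream of its nearest start, by 66 bp, in the 5' UTR.

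Of the crosslink and translesion genes, Fancm, a translocase that acts on stalled forks, was bound. Its peak on 3R spanned 21481897 to 21482232, and its pooled signal was 77.4, rank 2464. The −log10 of its global IDR was 2.30, the lowest of the bound repair genes. The next lowest was 2.44, at XRCC1. The Fancm peak was in replicate 2's own list with 49.1, and in replicate 1 it was a ranked candidate of 31.3. Fancd2, Fancl and mus205, the catalytic subunit of DNA polymerase zeta, were not bound.

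Of the 25 repair genes that were not bound, 16 had a candidate of the pooled ranked list within 500 bp of a start and 9 had none. The strongest candidates were those at Msh6 (signal 89.9), mus308 (74.3), p53 (59.3), Gen (53.4) and lok (45.8). Their global IDR was 0.0103, 0.0329, 0.797, 0.0113 and 0.252. The other 11 candidates had signals between 3.05 and 43.3, with a median of 17.9, and their lowest global IDR was 0.358. The candidates at Msh6 and mus308 exceeded the signal of the weakest bound gene, XRCC1 (64.8), so the ranking by signal and the threshold on reproducibility did not divide the genes in the same way. By distance, mus205 was among the nearest to being counted, with a conservative summit 903 bp from a start. No conservative summit lay inside the body of any of the 40 genes beyond 500 bp from its starts.

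The bound repair genes mostly shared their peak with a neighbour. For 11 of the 15 (73.3%), a start of another protein-coding gene lay within 500 bp of the same summit, against 60.5% (1062 of 1755) of all bound protein-coding genes. Every such peak lay by a gene pair in head-to-head arrangement, from which the genes run apart. The neighbour of mei-41 was TH1, a subunit of the elongation factor NELF, with 260 bp between the starts. The neighbour of tefu was Hsc70-4, a cytosolic chaperone gene, at 451 bp, and that of nbs was defl, a subunit of the Integrator complex, at 229 bp. Irbp faced mgr, a prefoldin subunit gene, at 172 bp, Ercc1 faced SMC2, a condensin subunit gene, at 288 bp, and Rrp1 faced gammaTub23C, a gamma-tubulin gene, at 383 bp. Xpd was paired with LSm1, a factor of mRNA decapping, at 329 bp. The pairs of mus312, mus210, XRCC1 and phr were with mrva, CG8152, CG3309 and CG30383, at 290, 376, 529 and 148 bp. The gene CG42307 is annotated over the same coordinates as mus312 and shares its start.

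**Figure D2:**
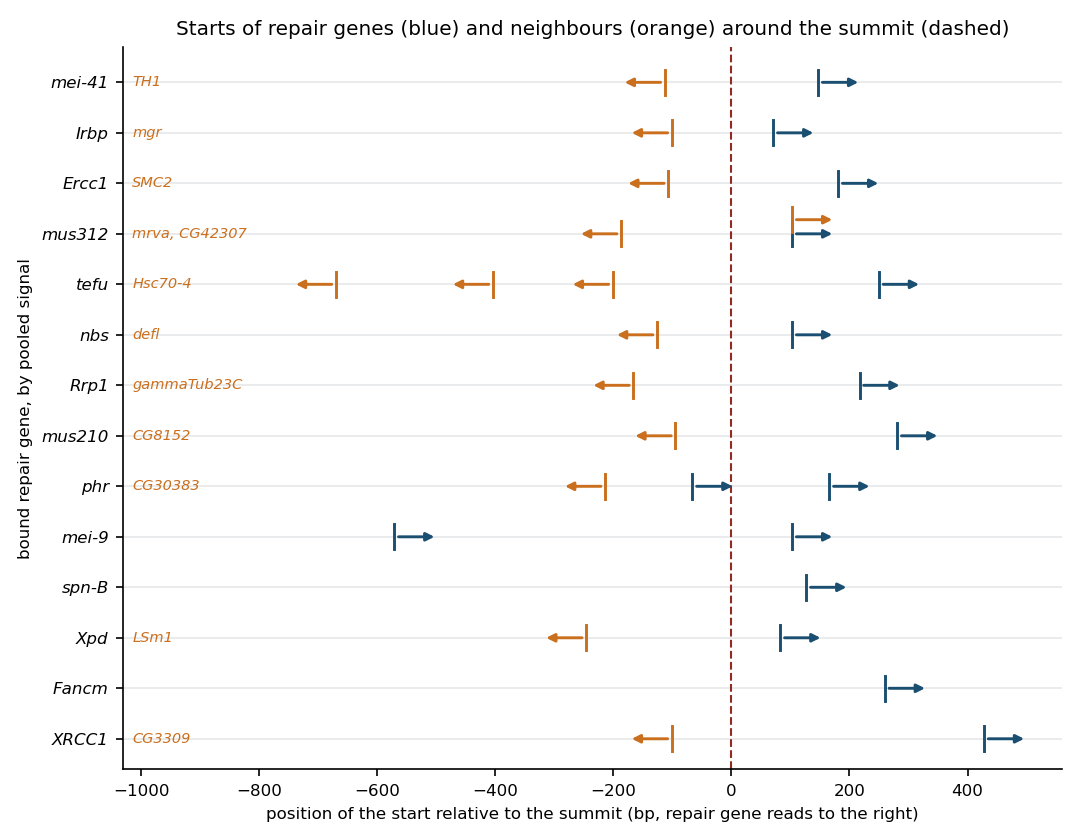
Starts of 14 bound repair genes (blue) and of neighbouring protein-coding genes (orange, named at the left) in bp from the summit (dashed line at 0), with each repair gene drawn reading to the right and ordered by pooled signal. In 10 of the rows the summit lies between the repair gene's start and the start of a neighbour that runs the other way. At phr alone the repair gene's own nearest start lies to the left of the summit.

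At 10 of these pairs the summit lay between the starts. At 6 of them (mei-41, tefu, Ercc1, mus210, Rrp1 and XRCC1) it was nearer to the neighbour's start than to the repair gene's. The peak cannot be assigned to either gene of such a pair. When each peak went to the single nearest start, 10 of the 40 repair genes were bound (25%), against 8.93% of protein-coding genes, and mei-41, tefu, Ercc1, Rrp1 and XRCC1 were lost. The gene mus210 was kept through its weaker summit, which lay 76 bp from its start. The peaks at spn-B, mei-9 and Fancm were shared with no other protein-coding gene.

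Repair genes were often in head-to-head pairs whether or not they were bound. A head-to-head neighbour, with a start within 1000 bp upstream on the other strand, was present for 30 of the 40 (75%), against 36.2% of protein-coding genes. Among genes with such a neighbour 12 of 30 repair genes were bound (40%), against 23.2% of protein-coding genes. Among genes without one 3 of 10 were bound (30.0%), against 6.54% of protein-coding genes. Over all protein-coding genes the bound share thus differed with the arrangement. Among the repair genes the shares of 40% and 30.0% rest on 30 and 10 genes. The part of the arrangement in the bound count was not tested. Genes with only 1 annotated start made up 33 of the 40 repair genes (82.5%), against 73.5% of protein-coding genes.

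**Figure D3:**
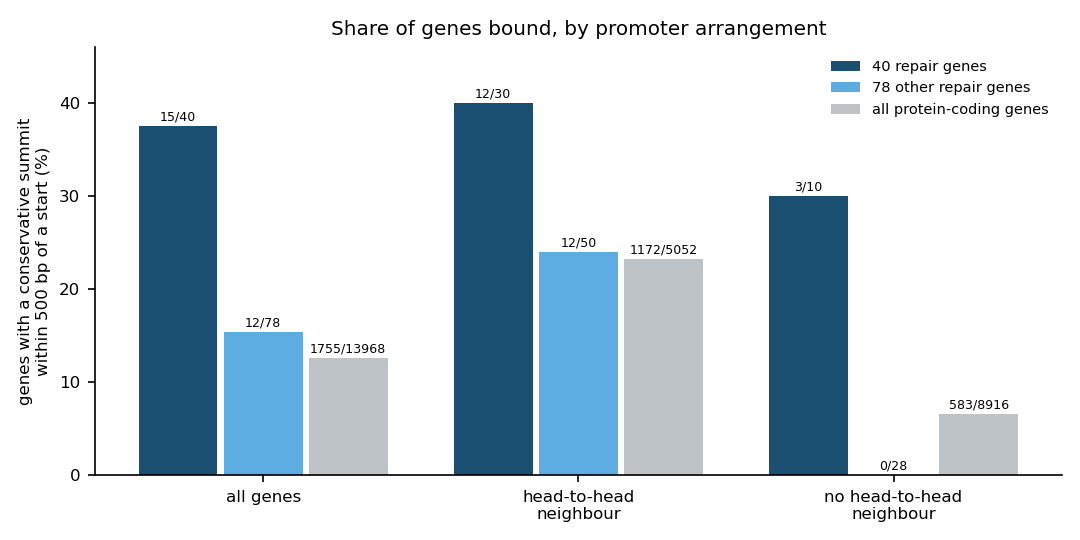
Percentage of genes with a conservative summit within 500 bp of a start, for the 40 repair genes, 78 other repair genes and all protein-coding genes, over all genes and split by the presence of a head-to-head neighbour, with the count of bound genes over the count of genes above each bar. The repair genes stand at 40% and all protein-coding genes at 23.2% among genes with such a neighbour.

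The distance between the starts of a pair also differed. The closest pairs, with under 150 bp between the starts, held 1 bound repair gene of 9 (phr), against 18.2% of protein-coding genes. Pairs with 150 to 499 bp held 9 of 15 (60%), against 29.5%, and those with 500 to 1000 bp held 2 of 6 (33.3%), against 15.2%. These classes were set after the values were seen and hold few repair genes. The unbound repair genes with close neighbours included lok, 52 bp from barr, and Brca2, 83 bp from CG4612.

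The own lists of both replicates held most of these places. Because the conservative list was made from both replicates with a threshold on reproducibility, it had already selected for this overlap. Of the 15 bound repair genes, 12 (80.0%) were also counted in the own lists of both replicates, against 65.6% of all bound protein-coding genes. Of the others, mus210 was in replicate 1's own list, Fancm was in replicate 2's, and XRCC1 was in neither. Among the 40 repair genes, replicate 1's own list bound 14 (35.0%), against 11.4% of protein-coding genes. In replicate 2's own list 14 were bound as well (35.0%), against 9.62%. The longer thresholded list bound 18 (45.0%), against 13.6%, with Msh6, mus308 and p53 added to the 15.

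Replicate signals could be compared at the 12 genes in both own lists, which the reproducibility threshold and this requirement had already selected for agreement. The log2 ratio of replicate 1 to replicate 2 had a median of 0.25 across these genes, with a range from -0.45 (Ercc1) to 0.73. Across 778 promoter peaks of bound protein-coding genes the median was 0.21 with an SD of 0.41, and the range of the 12 genes lay within that of these peaks (-0.94 to 2.08). Replicate 1 was higher at 11 of the 12, against 70.6% of those promoter peaks. Set against this spread, the order of the bound genes by pooled signal is uncertain between neighbours. The step from Irbp to Ercc1 was 0.45 on the log2 scale, and every other step was smaller than the SD of 0.41, the next largest being 0.36 from mei-41 to Irbp. This SD is that of ratios between single replicates, so it is only a rough guide to differences between pooled signals. The signal at mei-41 was larger than that at Irbp in replicate 1 (245 against 172) and in replicate 2 (178 against 158).

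**Figure D4:**
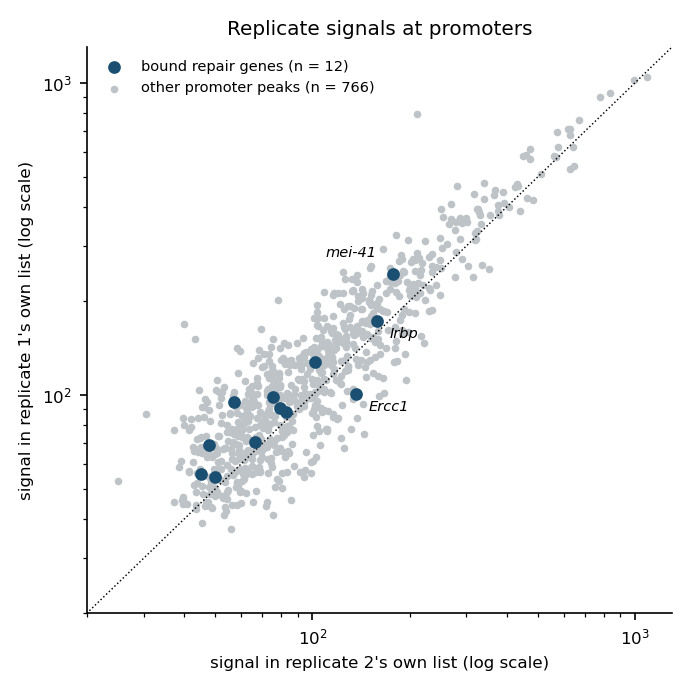
Signal in replicate 1's own list (vertical, log scale) against that in replicate 2's own list (horizontal, log scale) at promoters, with blue points for the 12 bound repair genes in both lists and grey points for the promoter peaks of other genes. The dotted line marks equal signals. Of the blue points, 11 lie above the line and Ercc1 lies below it.

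The peaks at repair genes were within the range of signals at other promoters. Their median pooled signal was 154, with a range from 64.8 to 415, against a median of 137 over the 1208 distinct peaks at bound protein-coding genes (range 9.05 to 2115). Only mei-41 and Irbp exceeded the upper quartile of those signals (238), and Fancm and XRCC1 were below the lower quartile (93.7). The order of the medians depended on the setting. The repair genes had the lower median in replicate 2's own list (71.0 against 80.5) and with the nearest start only (122 against 136). They also had the lower median at a global IDR of 0.001 or less (176 against 197), and the higher one in the other settings tried. Summits lay upstream of the nearest start for 14 of the 15 genes (93.3%), with a median position of -127 bp, against 90.2% and -145 bp for all bound protein-coding genes. In the annotation 13 of the 15 summits were intergenic, and the same share over all bound protein-coding genes was not counted.

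The summits were poor in G and C. Within 50 bp of the 15 summits the mean GC content was 25.1% (SD 8.52 across peaks), against 32.5% (SD 9.91) at the 1208 promoter peaks. Relative to windows of the same width 300 bp to either side, it was lower by 20.8 percentage points on average at the repair genes (difference -20.8, SD 13.4, n = 15 peaks) and by 11.9 points at all bound genes (difference -11.9, SD 13.2). The GC content was below that of the flanks at 13 of the 15, against 81.7% of the promoter peaks. The exceptions were tefu, 4.46 points above its flanks, and Fancm, 3.47 points above. Irbp had the largest difference, with 12.9% at the summit and 58.4% in the flanks. These are values across peaks of the same libraries, and the difference between repair genes and other genes was not tested.

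**Figure D5:**
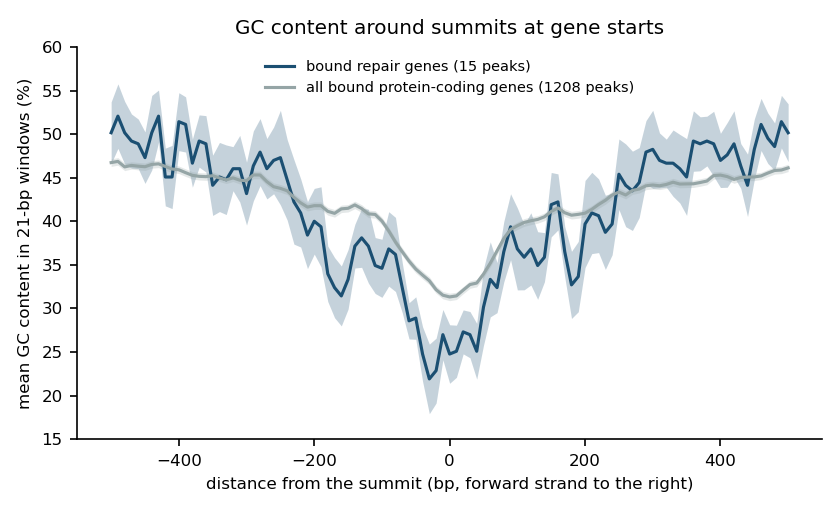
Mean GC content in 21-bp windows by distance from the summit, in bp along the forward strand, for the 15 peaks at bound repair genes (blue) and the 1208 peaks at all bound protein-coding genes (grey), with bands of 1 SE across peaks. Both lines fall towards the summit, to 24.8% in the central window at the repair genes and 31.3% at all bound genes.

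Runs of at least 8 A or T bases occurred in 13 of the 15 summit windows (86.7%), all but those of Rrp1 and Fancm, and in 36.7% of their flanking windows. At all bound genes the shares were 82.2% and 44.8%. The median longest run was 13 bases at the repair genes and 11 at all bound genes. The 10 words of 8 bases with the largest excess at the summits of the other conservative peaks were all made of A and T, led by AAATATAT, ATTTAAAA and TTTAAAAA. At least 1 of the 10 words was in 7 of the 15 windows (46.7%), against 41.1% of the promoter peaks. Of 6 motifs searched on both strands within 50 bp of the summit, TATAAA, the word of the TATA box, was in 6 windows (40%), against 26.5% of the promoter peaks. These were the windows of nbs, Irbp, spn-B, mus312, XRCC1 and phr. CGATA, the BEAF-32 element, was in 2 windows, that of nbs among them (13.3%, against 18.4%). TAATTA, the homeodomain core, was in that of Irbp (6.67%, against 10.6%), and GAGAG, the GAGA factor core, in that of Fancm (6.67%, against 6.37%). TATCGATA, the DRE, which contains CGATA, and GGTCACAC, the core of Motif 1, were in none of the 15 windows, against 1.99% and 0.745% of the promoter peaks. The word TATAAA is itself made of A and T, and overlaps with the A/T runs. Its position relative to the starts was not examined, so these are counts of the word and not of TATA boxes placed at a start.

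A further list of 78 repair genes outside the 40 had a share nearer to the background. Of these, 12 were bound (15.4%), against 12.6% of protein-coding genes. All 12 had a head-to-head neighbour, and among the 50 such genes of this list 24.0% were bound, against 23.2% of protein-coding genes. Both lists together had 27 of 118 bound (22.9%), and among head-to-head genes 24 of 80 (30.0%). The bound genes were the TFIIH subunit genes Ssl1 (pooled signal 1322), mrn (254) and Tfb5 (63.8), Aptx (353), a DNA end-processing enzyme gene, and Ino80 (353), a remodeller gene that shares its peak with Aptx. They also included SMC6 (304), a subunit gene of the SMC5-SMC6 complex, the translesion polymerase gene Rev1 (221), the helicase gene Rtel1 (208), RPA1 (199), which encodes the large subunit of the single-strand binding protein, Mms19 (137), slx1 (125) and the histone variant gene His2Av (119).

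Grouped by complex, a grouping made after the values were seen, both subunit genes were bound for the nucleases XPF-ERCC1 (Ercc1 and mei-9) and SLX1-SLX4 (slx1 and mus312), and neither was for MUS81 (mus81 and mms4). Exactly 1 gene was bound of the Ku pair (Irbp) and of ATR with ATRIP (mei-41). Of the 3 MRN genes 1 was bound (nbs), and of the 3 RPA genes 1 (RPA1). Of 10 TFIIH genes 4 were bound (Xpd, mrn, Ssl1 and Tfb5), and of 6 SMC5-SMC6 genes 1 (SMC6). The share over all protein-coding genes was 12.6%, and complexes of so few genes give no share to set against it. All the bound genes named here except mei-9 shared their peak with another protein-coding gene, so these peaks cannot be assigned to them alone. Of the genes named here from the list of 40, Ercc1 and mei-41 were not bound with the nearest start only. In that setting 5 genes of the other repair list were bound, against 12 in the main count.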

How the data were processed

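Sonicated chromatin (200 to 800 bp) from 2 biological replicates was immunoprecipitated, per the labels. The listings deposited with the lists name a control and filtered dm6 alignments as inputs. The aligner and peak caller were not given in the sources used here. The authors deposited, for each peak, a signal, an IDR score (830 or more in the conservative list, held at 1000), −log10 of a q value, −log10 of the global IDR in ranked lists, and a summit offset. Depth is unknown. The series' ranked lists held 16 columns of replicates that no label names. They were not used.

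Peaks and Ensembl release 115 starts on the 7 main chromosome arms, Y included, were joined by position with pandas 2.3.3. The lookups were tested on simulated data. On these arms no peak ended beyond the reference length, and peaks elsewhere were left out of the join. Replicate signals came from each replicate's own list. The 40 genes and the other lists were chosen with earlier results of these data known. Bound members were named, the 5 strongest candidates at unbound ones, genes sharing a member's peak, and bound genes of the other repair list. Values of 2 of the 40 genes are not reported here singly. That list's 93 symbols gave 78 distinct genes. Motifs and words were counted within 50 bp of summits, with flanks 300 bp away. A/T runs, distance classes and complexes were added after seeing the data. Other peak lists, distances (250 and 1000 bp), nearest-start assignment and a global IDR of 0.001 were tried.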

Additional observations from a re-analysis of the deposited data

How the results depend on the processing

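The number of bound repair genes was 15 of 40 and lay between 10 (nearest start only) and 18 (the longer list) under the 7 alternatives. It was 14 in either replicate's own list alone, with 13 of the 15 genes kept in each. Within 250 bp it was 13 (32.5%, against 9.74% of protein-coding genes). Within 1000 bp it was 17 (42.5%, against 14.9%), with mus205 among those added. At a global IDR of 0.001 or less it was 11 (27.5%, against 8.33%), with Fancm, XRCC1, Xpd and spn-B lost. With the nearest start only, shared peaks fell to 1 and bound genes of the other repair list to 5, by construction, since each peak then goes to 1 gene except at tied starts. The median signal of the repair genes was 91.6 in replicate 1's own list (85.3 at all bound protein-coding genes) and 71.0 in replicate 2's (80.5). These lists hold single-replicate signals. The median was 122.0 with the nearest start only (136 at all bound genes) and 175.8 at the stricter IDR (197). In the longer list and within 250 and 1000 bp the repair genes had the higher median. Within 100 bp of the summit the GC difference was -15.4 points. Counts within routes, of 1 to 4 genes, moved by over 1.5 times in 16 cases and stayed within it in 47. Damage signalling fell to 1 (nearest start only), against 3. Base excision, with 2, had 0 with the nearest start only and 1 in either own list, within 250 bp and at the stricter IDR. Recombination and crosslink repair, with 1 each, had 0 at the stricter IDR and 2 within 1000 bp, and crosslink repair had 0 within 250 bp and in replicate 1's own list. End joining, with 1, had 2 in the longer list and in replicate 2's own list. The count of routes with a bound gene (7 to 9), replicate support and the count of head-to-head genes stayed within 1.5 times. No paired analysis was possible because there was only 1 group. The unknown depth and 2 replicates limit the precision of every signal.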
